A study of Mus musculus with 54 samples.

Results

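The 10 genes described here move cholesterol out of cells or turn it into bile acids and carry those through the liver: *Abcg5*, *Abcg8*, *Abca1*, *Abcg1*, *Cyp7a1*, *Cyp8b1*, *Cyp27a1*, *Abcb11*, *Slc10a1* and *Nr0b2*. They were taken by gene name from the 54356 genes listed in a heart table and a liver table of normalized read counts. The tissues came from C57BL/6 mice that carried either the wild-type mitochondrial ribosomal protein gene *Mrps12* (*Mrps12+/+*) or, in both copies and in every cell of the body, an error-prone (*Mrps12ep/ep*) or a hyper-accurate (*Mrps12ha/ha*) allele, which lower and raise the fidelity of mitochondrial protein synthesis. All 3 genotypes, controls included, had eaten a high-fat diet with 42% of its energy from fat, and tissue was taken at 20 weeks. There were 3 mice per genotype and tissue, and each mouse entered once, as the pool of its technical libraries. No mice on another diet entered the tables, so that the effect of the diet itself could not be measured.

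Cholesterol leaves the hepatocyte by a few routes. It is pumped unchanged into bile by the ABCG5/ABCG8 transporter pair, handed to lipoprotein particles by ABCA1 and ABCG1, or converted to bile acids by a chain of enzymes that CYP7A1 begins, CYP8B1 steers towards cholic acid and CYP27A1 opens by a second route. The bile salt export pump (ABCB11) and the sodium-dependent uptake carrier NTCP (SLC10A1) move bile acids across opposite faces of the hepatocyte, and the small heterodimer partner (NR0B2) is a repressor through which bile acids, acting on the receptor FXR, restrain their own synthesis. The sterol receptor LXR is known to drive the ABC sterol pumps, and in mice *Cyp7a1*, when sterols build up.

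Library size, as reads recovered from the normalized counts, ran from 11202947 to 51499054 in hearts and from 21238042 to 81491455 in livers. Differences between genotypes were fitted with limma on log2(normalized count + 1) over the genes with a mean of at least 10 in the tissue, 15314 in the liver and 16057 in the heart, and a gene was called at a Benjamini-Hochberg adjusted p under 0.05. Both comparisons with *Mrps12+/+* used the same 3 control mice, so they are not independent of each other. *Mrps12+/+* liver 3 stood apart: 6 acute phase transcripts summed to 1604000 normalized counts there. The sum was 205600 in *Mrps12+/+* liver 2, at most 206700 in the *Mrps12ep/ep* livers and at most 197800 in the *Mrps12ha/ha* livers. In *Mrps12ha/ha* livers 3 of the 6 were still lower without *Mrps12+/+* liver 3 at an unadjusted limma p under 0.05 (median log2 difference −1.08). In *Mrps12ep/ep* livers 1 was (median −0.46). Of all 15314 genes 973 and 603 were lower in that setting. *Mrps12+/+* liver 3 was also the lowest of the 9 livers in 4 of the 10 genes. Skeletal muscle transcripts summed to up to 14240 in the other *Mrps12+/+* livers and to at most 119.9 in the mutant livers. Cardiomyocyte transcripts summed to 6902 in *Mrps12ha/ha* liver 3, and to at most 93.8 in *Mrps12+/+* and 410.5 in *Mrps12ep/ep* livers. Among the hearts it was *Mrps12ha/ha* heart 2, the one with the fewest reads, that stood apart: without it 4330 genes were called between *Mrps12ha/ha* and *Mrps12+/+* hearts and 3730 between *Mrps12ha/ha* and *Mrps12ep/ep* hearts, beside 5 and 4 with it. Values without *Mrps12+/+* liver 3 are given beside several of the liver results, and values without *Mrps12ha/ha* heart 2 beside *Cyp27a1*. Counts of gene lists in the heart are given only with all hearts. In bulk tissue, fewer cells of a type and less RNA per cell cannot be told apart.

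Upstream sequence is shown for 5 of the genes, chosen because contrasts below turn on them. The counts of *Abcg5* and *Abcg8*, which share one stretch, varied together, and those of *Abca1* did not follow theirs. *Nr0b2* and *Cyp8b1* separated the mutants from each other in the liver, as did *Slc10a1*, which is not shown. All *Mrps12ha/ha* livers lay above all *Mrps12ep/ep* livers in 8.82% of genes and below them in 9.01%. Each sequence is printed 5′ to 3′ on the strand named and ends at the base before the start site (RefSeq, GRCm38.p6). Capitals mark a match to a named motif, and the motifs were picked after the windows had been read.
*Abcg5*/*Abcg8*, chr17:84683012-84683120, plus strand: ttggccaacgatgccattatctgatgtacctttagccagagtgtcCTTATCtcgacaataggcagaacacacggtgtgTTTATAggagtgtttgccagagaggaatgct
*Abca1*, chr4:53159896-53159982, minus strand: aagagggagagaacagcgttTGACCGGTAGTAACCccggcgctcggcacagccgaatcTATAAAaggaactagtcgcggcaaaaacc
*Nr0b2*, chr4:133553288-133553375, plus strand: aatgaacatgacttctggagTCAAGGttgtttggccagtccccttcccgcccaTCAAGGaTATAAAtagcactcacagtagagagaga
*Cyp8b1*, chr9:121916306-121916392, minus strand: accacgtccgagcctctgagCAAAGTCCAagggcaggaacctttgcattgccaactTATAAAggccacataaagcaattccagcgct
The *Abcg5* and *Abcg8* start sites face away from each other across 109 bases, and the printed stretch is the whole of that gap. The first run of capitals in it is GATAAG read on the other strand, a motif found in 7.44% of 32851 promoter windows when both strands were searched. In *Abca1* the long run is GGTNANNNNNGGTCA on the other strand, the direct repeat with a 4-base spacer that LXR is known to bind, which was present in 0.207% of windows and, among the windows of the 10 genes, in that of *Abca1* alone. Its last 5 letters are also the end of AGGTCA, the single receptor hexamer, which 16.3% of windows held, those of *Abcb11* and *Slc10a1* among them. *Nr0b2* held TCAAGG, the hexamer of LRH-1, at 2 places (14.4% of windows had at least one), and *Cyp8b1* held CAAAGTCCA, an HNF4-type repeat (0.475%). TATAAA, also in capitals and read on the other strand in the shared stretch, was found for 6 of the 8 genes with a window and in 13.6% of all windows. *Abcg1* and *Cyp7a1* were not among the windows. A match is a description of letters, not evidence that a factor binds there.

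In the liver both transcripts of the pump that empties cholesterol into bile were higher in every *Mrps12ep/ep* liver than in any control. This was so for 6.49% of all genes. Both were also higher in every *Mrps12ha/ha* liver than in any control, as were 10.0% of genes. Counts of *Cyp7a1*, the rate-limiting enzyme of bile acid synthesis, were lower in all *Mrps12ha/ha* livers than in any control, as in 9.81% of genes. The pump transcripts varied together (Pearson r = 0.993) and are not independent observations. Both mutants were set against the same 3 controls, and the share of genes with all 6 mutant livers above them was not counted. None of the 10 genes passed the adjusted threshold in any of the 3 liver comparisons, where 1 gene of 15314 passed in each (0.00653%). At an unadjusted p under 0.05, 5 of the 10 differed between *Mrps12ep/ep* and *Mrps12+/+* livers (4 higher, 1 lower), beside 9.74% of all genes. Between *Mrps12ha/ha* and *Mrps12+/+* livers 1 of the 10 did (14.1% of all genes), and between *Mrps12ha/ha* and *Mrps12ep/ep* livers 3 did (8.62% of all genes). In 4 of the 10, *Abcg5*, *Abcg8*, *Abcb11* and *Nr0b2*, every *Mrps12ep/ep* liver lay above every *Mrps12+/+* liver, a pattern shown by 6.49% of genes, and in none did every *Mrps12ep/ep* liver lie below, as it did for 6.28% of genes. With 3 mice against 3 an exact two-sided permutation test cannot give a p below 0.1, which is its value wherever groups did not overlap.

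**Figure D1:**
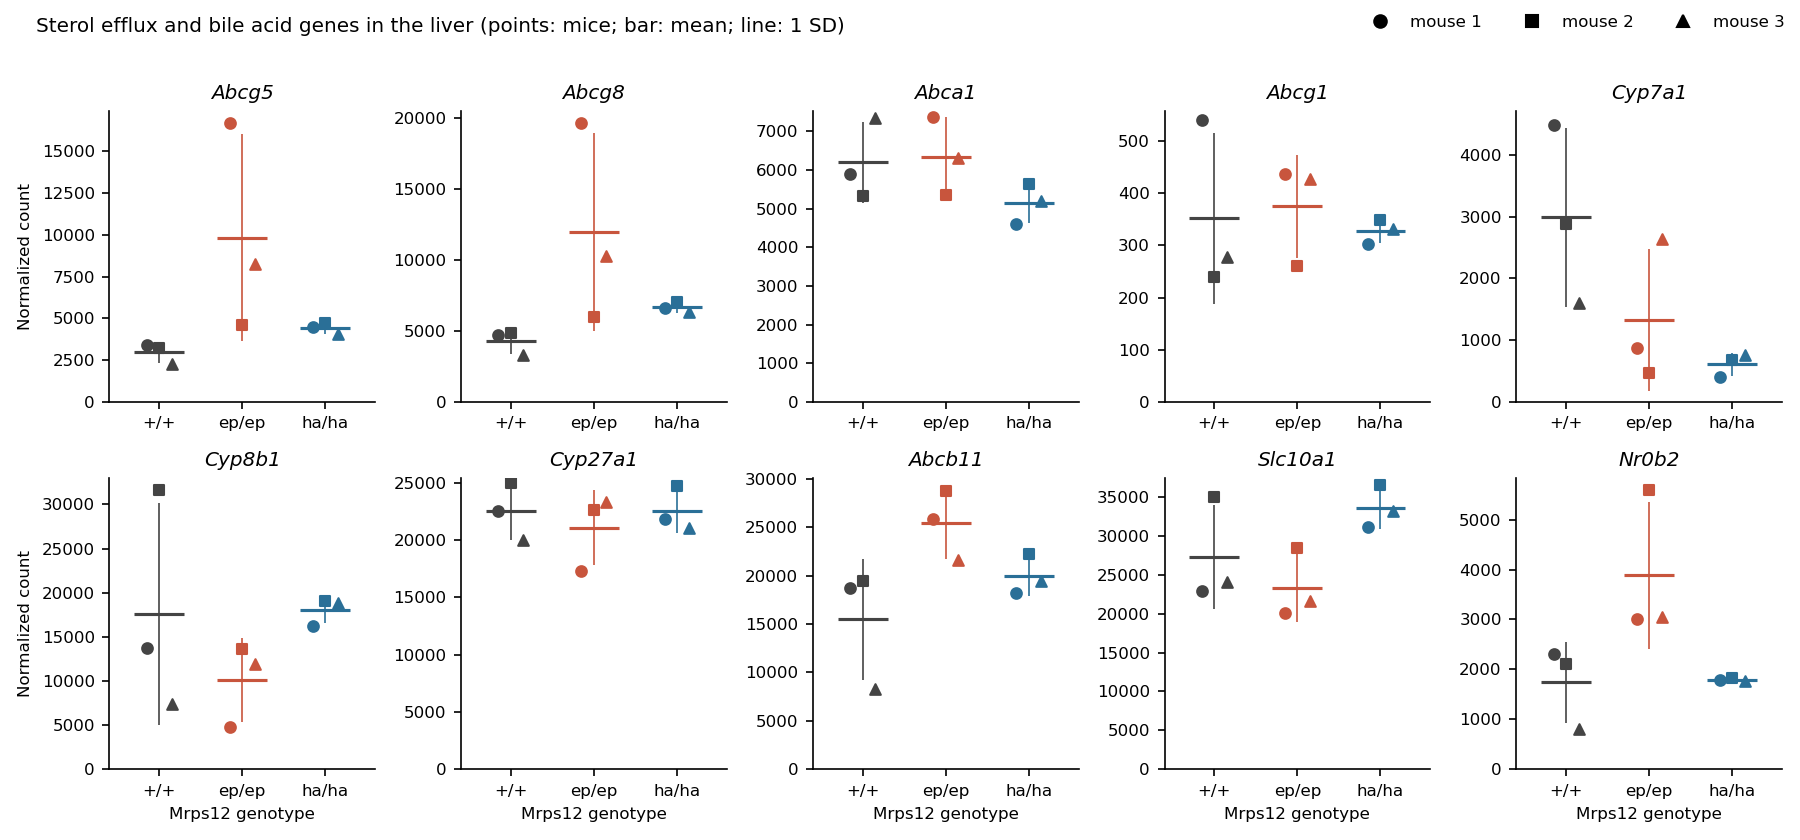
Normalized counts of the 10 genes in the 9 livers, one panel per gene with its own axis starting at 0; black is wild type, red error-prone and blue hyper-accurate, the symbol shape gives the mouse, and bars show the mean and SD (n = 3). The red points lie above all black points for *Abcg5*, *Abcg8*, *Abcb11* and *Nr0b2*, and the blue points lie below all black points for *Cyp7a1*.

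*Abcg5* (ENSMUSG00000040505.13) lies on chromosome 17 from 84658234 to 84683011 on the minus strand of GRCm38. Its normalized counts were 3397, 3253 and 2258 in *Mrps12+/+* livers 1 to 3, 16689, 4605 and 8234 in *Mrps12ep/ep* livers 1 to 3 and 4463, 4723 and 4051 in *Mrps12ha/ha* livers 1 to 3. All 6 mutant livers lay above all 3 controls, and *Mrps12ep/ep* liver 1 was far above the other 2 livers of its genotype. The group means were 2969.6 ± 620.2 in *Mrps12+/+*, 9843 ± 6200.1 in *Mrps12ep/ep* and 4412 ± 339 in *Mrps12ha/ha* livers (SD, n = 3), so that the *Mrps12ep/ep* mean was 3.31 times and the *Mrps12ha/ha* mean 1.49 times that of the controls. On the log2(count + 1) scale the *Mrps12ep/ep* difference was 1.55 (SE 0.38; limma adjusted p = 0.348) and was 1.08 without *Mrps12ep/ep* liver 1 and 1.37 without *Mrps12+/+* liver 3. The *Mrps12ha/ha* difference was 0.59 (SE 0.38; limma adjusted p = 0.517), and 0.405 without *Mrps12+/+* liver 3.

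*Abcg8* (ENSMUSG00000024254.15), which encodes the other subunit of the same pump, lies on chromosome 17 from 84676302 to 84700333 on the plus strand, head to head with *Abcg5*; the 2 gene models overlap by 6710 bases on opposite strands and were quantified with strand taken into account. Its normalized counts were 4683, 4859 and 3277 in *Mrps12+/+* livers 1 to 3, 19675, 5971 and 10269 in *Mrps12ep/ep* livers 1 to 3 and 6633, 7034 and 6309 in *Mrps12ha/ha* livers 1 to 3. As for *Abcg5*, the mutant livers lay above the controls, *Mrps12ep/ep* liver 1 was highest and *Mrps12+/+* liver 3 lowest. The means were 4273 ± 867, 11972 ± 7008 and 6659 ± 363 (SD, n = 3) in *Mrps12+/+*, *Mrps12ep/ep* and *Mrps12ha/ha* livers, 2.8 and 1.56 times the controls in the mutants. The *Mrps12ep/ep* difference was 1.34 on the log2 scale (SE 0.35; limma adjusted p = 0.389), 0.90 without *Mrps12ep/ep* liver 1 and 1.16 without *Mrps12+/+* liver 3. The *Mrps12ha/ha* difference was 0.66 (SE 0.35; limma adjusted p = 0.435), and 0.48 without *Mrps12+/+* liver 3. Across the 9 livers, which differ in genotype and depth, log2 values of the pair had a Pearson r of 0.993, and each was the other's closest match among 15314 genes. The ratio of *Abcg5* to *Abcg8* normalized counts stayed between 0.642 and 0.848 while *Abcg5* itself ranged from 2258 to 16689. Next in likeness to both was *Fgfr2*, a fibroblast growth factor receptor (r = 0.977 with each), and *Srebf1*, the gene of the lipogenic factor SREBP1, had r = 0.93 with *Abcg5*.

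The lipoprotein-loading pumps did not share this pattern. *Abca1*, on chromosome 4 from 53030787 to 53159895 on the minus strand, encodes the pump that hands cholesterol to apolipoprotein A1 to begin an HDL particle. Its counts were 5898, 5335 and 7358 in *Mrps12+/+* livers 1 to 3, 7383, 5364 and 6301 in *Mrps12ep/ep* livers 1 to 3 and 4608, 5634 and 5186 in *Mrps12ha/ha* livers 1 to 3, with overlap between every pair of genotypes. The *Mrps12ep/ep* minus *Mrps12+/+* difference was 0.04 on the log2 scale, with a 95% interval of −0.31 to 0.38, and the *Mrps12ha/ha* minus *Mrps12+/+* difference was −0.26, with an interval of −0.60 to 0.08. Over the 9 livers *Abca1* had r = 0.31 with *Abcg5*. Its closest matches were *Arl15* (r = 0.979), *Chsy3* (0.969) and *Il13ra1* (0.963).

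*Abcg1*, on chromosome 17 from 31057675 to 31117988 on the plus strand, encodes the pump that passes cholesterol to HDL particles already formed. Its counts were 540.1, 239 and 277 in *Mrps12+/+* livers 1 to 3, 437, 262 and 428 in *Mrps12ep/ep* livers 1 to 3 and 302, 349 and 332 in *Mrps12ha/ha* livers 1 to 3. *Mrps12+/+* liver 1 was the highest of all 9 livers and *Mrps12+/+* liver 2 the lowest, and all groups overlapped. The differences from *Mrps12+/+* were 0.15 in *Mrps12ep/ep* livers (95% interval −0.54 to 0.84) and −0.01 in *Mrps12ha/ha* livers (−0.70 to 0.68) on the log2 scale. Its closest match was *Fgd3* (r = 0.97).

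*Cyp7a1*, on chromosome 4 from 6265612 to 6275633 on the minus strand, encodes cholesterol 7α-hydroxylase, the rate-limiting enzyme of the classic route of bile acid synthesis. Its normalized counts were 4492, 2875 and 1594 in *Mrps12+/+* livers 1 to 3, 879.6, 473 and 2630 in *Mrps12ep/ep* livers 1 to 3 and 402, 676 and 758 in *Mrps12ha/ha* livers 1 to 3. Every *Mrps12ha/ha* liver was below every *Mrps12+/+* liver, as in 9.81% of genes, while *Mrps12ep/ep* liver 3 lay between the controls and the other 2 *Mrps12ep/ep* livers lay below them. The means were 2987 ± 1452 in *Mrps12+/+*, 1328 ± 1146 in *Mrps12ep/ep* and 612 ± 186 in *Mrps12ha/ha* livers (SD, n = 3), the *Mrps12ha/ha* mean being 4.88 times and the *Mrps12ep/ep* mean 2.25 times lower than that of the controls. The *Mrps12ha/ha* difference was −2.21 on the log2 scale (SE 0.59; limma adjusted p = 0.169), from −2.60 without *Mrps12+/+* liver 3 to −1.86 without *Mrps12+/+* liver 1. The *Mrps12ep/ep* difference was −1.41 (SE 0.59; limma adjusted p = 0.491), and *Mrps12ha/ha* and *Mrps12ep/ep* livers overlapped (log2 difference −0.80, limma adjusted p = 0.765). Without *Mrps12ep/ep* liver 3 these differences were −2.09 and −0.13.

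*Cyp7a1* is known to follow the time of day, and one of the factors that drive it is DBP, a clock output protein. *Dbp* counts were 2393, 4431 and 4526 in *Mrps12+/+* livers 1 to 3, 2652, 4342 and 5813 in *Mrps12ep/ep* livers 1 to 3 and 6926, 9149 and 7899 in *Mrps12ha/ha* livers 1 to 3, so that the *Mrps12ha/ha* livers lay above all others. Of 12 clock genes, 5 were higher at an unadjusted limma p under 0.05 in *Mrps12ha/ha* than in *Mrps12+/+* livers and none was lower (14.1% of all genes passed). Without overlap, 6 of the 12 lay above the controls and 1 below (10.0% and 9.81% of all genes). *Bhlhe41* (1.82), *Per3* (1.31) and *Dbp* (1.13) were among those with the greatest log2 differences, and none passed the adjusted threshold. In *Mrps12ep/ep* livers 0 of the 12 differed from *Mrps12+/+* at an unadjusted limma p under 0.05 (9.74% of all genes). The hour at which tissue was taken is not given in the sources used here, and the part of these values in the *Cyp7a1* result was not tested. Over the 9 livers the log2 values of *Cyp7a1* and *Dbp* had r = −0.5, and those of *Cyp7a1* and *Nr0b2* had r = −0.15. The genes most like *Cyp7a1* were *Eef1akmt2* (r = 0.926), *Ccl2* (0.923) and *Flt3* (0.913).

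*Cyp8b1*, on chromosome 9 from 121914356 to 121916305 on the minus strand, encodes sterol 12α-hydroxylase, which sets how much of the bile acid pool is cholic acid. Its counts were 13692, 31609.9 and 7419.8 in *Mrps12+/+* livers 1 to 3, 4735, 13599 and 11949 in *Mrps12ep/ep* livers 1 to 3 and 16275, 19043 and 18807 in *Mrps12ha/ha* livers 1 to 3. The controls spanned a wider range than the mutants together, with *Mrps12+/+* liver 2 the highest of the 9 livers, and every *Mrps12ha/ha* liver lay above every *Mrps12ep/ep* liver. That was the case for 8.82% of genes, and the reverse for 9.01%. The *Mrps12ha/ha* mean was 18042 ± 1535 and the *Mrps12ep/ep* mean 10094 ± 4714 (SD, n = 3), a ratio of 1.79 and a log2 difference of 0.97 (SE 0.51; limma adjusted p = 0.656), which was 0.50 without *Mrps12ep/ep* liver 1. Against *Mrps12+/+* the *Mrps12ep/ep* difference was −0.69 and the *Mrps12ha/ha* difference 0.29, and without *Mrps12+/+* liver 3 they were −1.18 and −0.21, so that the second changed sign.

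*Cyp27a1*, on chromosome 1 from 74713574 to 74737892 on the plus strand, encodes the mitochondrial sterol 27-hydroxylase that begins the alternative route. Its counts were 22573, 24995 and 20021 in *Mrps12+/+* livers 1 to 3, 17319.5, 22672 and 23304 in *Mrps12ep/ep* livers 1 to 3 and 21851, 24716 and 21035 in *Mrps12ha/ha* livers 1 to 3. The genotypes overlapped and had close means of 22529 ± 2487, 21098 ± 3288 and 22534 ± 1933 (SD, n = 3). The difference from *Mrps12+/+* was −0.10 in *Mrps12ep/ep* livers (95% interval −0.42 to 0.22) and 0.00 in *Mrps12ha/ha* livers (−0.32 to 0.32) on the log2 scale. The first steps of the classic and the alternative route thus had unlike values in the same livers: the lower *Cyp7a1* counts of the *Mrps12ha/ha* livers had no counterpart in *Cyp27a1*.

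*Abcb11*, on chromosome 2 from 69238282 to 69342616 on the minus strand, encodes the bile salt export pump. Its counts were 18733, 19409 and 8286 in *Mrps12+/+* livers 1 to 3, 25816, 28755 and 21555 in *Mrps12ep/ep* livers 1 to 3 and 18159.7, 22230.1 and 19452 in *Mrps12ha/ha* livers 1 to 3. All *Mrps12ep/ep* livers lay above all *Mrps12+/+* livers, as in 6.49% of genes, and *Mrps12+/+* liver 3 lay far below the other 8. The means were 15476 ± 6235 in *Mrps12+/+*, 25375 ± 3620.1 in *Mrps12ep/ep* and 19947 ± 2079.9 in *Mrps12ha/ha* livers (SD, n = 3). The *Mrps12ep/ep* difference was 0.80 on the log2 scale (SE 0.29; limma adjusted p = 0.458) and 0.40 without *Mrps12+/+* liver 3. The *Mrps12ha/ha* difference of 0.46 was 0.06 without that liver.

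*Slc10a1*, on chromosome 12 from 80953183 to 80968705 on the minus strand, encodes NTCP, the main uptake carrier for conjugated bile acids from blood. Its counts were 22900.2, 35025 and 24041 in *Mrps12+/+* livers 1 to 3, 20068, 28427 and 21619.5 in *Mrps12ep/ep* livers 1 to 3 and 31145, 36547 and 33296 in *Mrps12ha/ha* livers 1 to 3. The *Mrps12ha/ha* livers lay above all *Mrps12ep/ep* livers, as in 8.82% of genes, and the controls overlapped both. The *Mrps12ha/ha* mean of 33663 ± 2719 was 1.44 times the *Mrps12ep/ep* mean of 23371 ± 4446 (SD, n = 3), a log2 difference of 0.54 (SE 0.19; limma adjusted p = 0.509). Against *Mrps12+/+* the differences were −0.21 in *Mrps12ep/ep* and 0.33 in *Mrps12ha/ha* livers. Its closest matches over the 9 livers were *Hsd17b10* (r = 0.972) and *Rfx4* (0.969), followed by *Abcd3* (0.955).

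*Nr0b2*, on chromosome 4 from 133553376 to 133556536 on the plus strand, encodes SHP, which lacks a DNA-binding domain and represses *Cyp7a1* and *Cyp8b1* through LRH-1 and HNF4A. Its counts were 2301, 2099 and 813 in *Mrps12+/+* livers 1 to 3, 3000.1, 5589 and 3058 in *Mrps12ep/ep* livers 1 to 3 and 1795, 1823 and 1759 in *Mrps12ha/ha* livers 1 to 3. The *Mrps12ep/ep* livers lay above all 6 others, *Mrps12ep/ep* liver 2 most of all, and the 3 *Mrps12ha/ha* livers differed little, with a coefficient of variation of 1.8%. All *Mrps12ep/ep* livers lay above all controls in 6.49% of genes and above all *Mrps12ha/ha* livers in 9.01%. The means were 1738 ± 807 in *Mrps12+/+*, 3883 ± 1478 in *Mrps12ep/ep* and 1792 ± 32 in *Mrps12ha/ha* livers (SD, n = 3). The *Mrps12ep/ep* mean was 2.23 times that of *Mrps12+/+* (log2 difference 1.24, SE 0.38; limma adjusted p = 0.422), and the *Mrps12ha/ha* mean was 2.17 times lower than that of *Mrps12ep/ep* (log2 difference −1.05; limma adjusted p = 0.509). Without *Mrps12+/+* liver 3 the *Mrps12ep/ep* difference was 0.76, and the *Mrps12ha/ha* difference from *Mrps12+/+* went from 0.18 to −0.29. The *Mrps12ha/ha* livers, which had the lowest *Cyp7a1* mean, had *Nr0b2* counts above *Mrps12+/+* liver 3 and below *Mrps12+/+* livers 1 and 2.

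**Figure D2:**
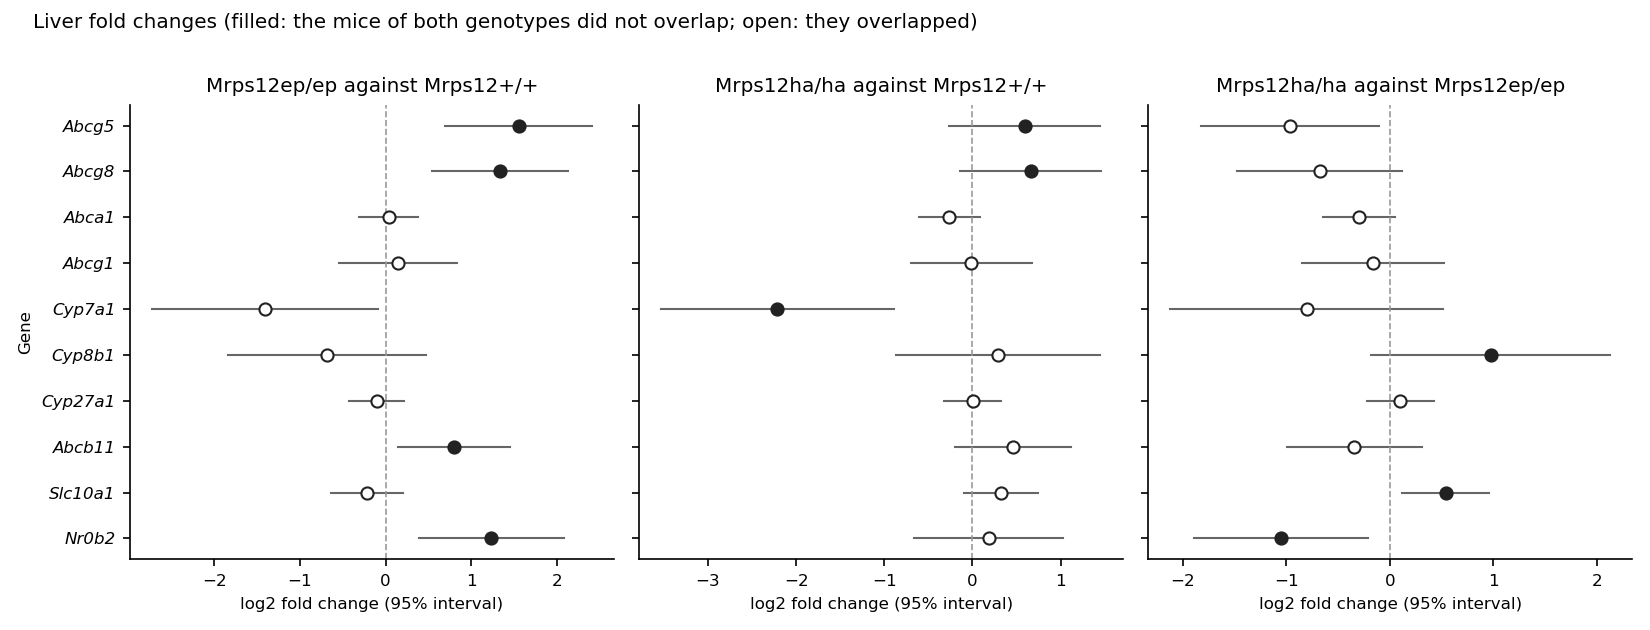
Log2 differences of the 10 genes between liver genotypes, from limma, with 95% intervals; a filled symbol marks groups that did not overlap. The error-prone livers differ from wild type by 1.55 in *Abcg5*, 1.34 in *Abcg8* and −1.41 in *Cyp7a1*, and the hyper-accurate livers by −2.21 in *Cyp7a1*.

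Across the 10 genes the median log2 difference was 0.09 between *Mrps12ep/ep* and *Mrps12+/+* livers and 0.24 between *Mrps12ha/ha* and *Mrps12+/+* livers, beside medians of −0.01 and −0.02 over all genes tested, and −0.32 between *Mrps12ha/ha* and *Mrps12ep/ep* livers, beside 0.00. Without *Mrps12+/+* liver 3 the medians of the 10 were 0.10 for *Mrps12ep/ep* and −0.11 for *Mrps12ha/ha* against *Mrps12+/+*, so that the second changed sign, and without *Mrps12+/+* liver 2 the *Mrps12ep/ep* median was −0.02. Between *Mrps12ha/ha* and *Mrps12+/+* livers 2 genes lay above the controls without overlap, *Abcg5* and *Abcg8* (10.0% of all genes did so), and 1 below, *Cyp7a1* (9.81%). Between *Mrps12ha/ha* and *Mrps12ep/ep* livers *Cyp8b1* and *Slc10a1* lay above without overlap (8.82% of all genes) and *Nr0b2* below (9.01%). Without *Mrps12+/+* liver 3, 4 genes lay above the remaining controls and 2 below in *Mrps12ep/ep* livers, and 2 above and 2 below in *Mrps12ha/ha* livers, without overlap (over all genes 9.02% above and 10% below in *Mrps12ep/ep*, 14.3% above and 15.2% below in *Mrps12ha/ha* livers). Among the livers as points, which differ in genotype and depth, some genes varied together. *Abcb11* and *Nr0b2* went together (r = 0.89), and so did *Cyp8b1* with *Cyp27a1* (0.86) and *Slc10a1* (0.83), while *Abca1* ran opposite to *Cyp8b1* (−0.81). *Mrps12ep/ep* liver 1 was at once the highest of the 9 in *Abcg5*, *Abcg8* and *Abca1* and the lowest in *Cyp8b1*, *Cyp27a1* and *Slc10a1*. A test of any difference among the 3 genotypes called none of the 10 and 0.0131% of all liver genes.

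Other transcripts also differed between these livers. A sum of 5 periportal hepatocyte genes was 128000 to 145000 in *Mrps12ep/ep* livers, 72240 to 113700 in *Mrps12+/+* and 98950 to 122900 in *Mrps12ha/ha* livers. The sum of 5 pericentral genes was 339800 to 385300 in *Mrps12ep/ep*, 294900 to 541400 in *Mrps12+/+* and 463600 to 541400 in *Mrps12ha/ha* livers, and bile acid genes are known to be unevenly spread along this axis. A sum of 5 general hepatocyte genes, *Alb* among them, was 5739000 to 5934000 in *Mrps12ep/ep*, 4421000 to 5095000 in *Mrps12+/+* and 5368000 to 5982000 in *Mrps12ha/ha* livers, so all 6 mutant livers exceeded the controls in this sum. Gene by gene, 2 of the 5 lay above the controls without overlap in *Mrps12ep/ep* and 1 in *Mrps12ha/ha* livers (6.49% and 10.0% of all genes). In each mutant 1 of the 5 had a negative log2 difference, and 0 passed an unadjusted limma p under 0.05. A sum of 5 cholangiocyte genes reached 12050 in *Mrps12+/+* liver 3 and at most 2197 in the mutants. Gene by gene, 0 of these 5 passed an unadjusted limma p under 0.05 in *Mrps12ha/ha* livers (14.1% of all genes). In *Mrps12ep/ep* livers 1 did, and it was lower (9.74% of all genes). A sum of 4 adipocyte genes was 279.2 to 921.9 in *Mrps12+/+*, 115.4 to 155.4 in *Mrps12ep/ep* and 56.7 to 123.7 in *Mrps12ha/ha* livers, which separated all 6 mutant livers from the controls as *Abcg5* and *Abcg8* did. Of these adipocyte genes *Lep* and *Plin1* were at 0 in every *Mrps12ep/ep* liver and *Lep* in every *Mrps12ha/ha* liver, and no gene of the other 4 lists was at 0 in every mouse of a genotype. Their part in the results above was not tested.

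The other genes of the pathway were counted from lists, to be read beside the 9.74% of all genes that passed an unadjusted p under 0.05 between *Mrps12ep/ep* and *Mrps12+/+* livers and the 14.1% between *Mrps12ha/ha* and *Mrps12+/+* livers. Of 15 further enzymes of bile acid synthesis, 4 were higher in *Mrps12ep/ep* than in *Mrps12+/+* livers at an unadjusted limma p under 0.05 and 0 lower, with a median log2 difference of 0.14, and in *Mrps12ha/ha* livers 3 were higher and 1 lower (median 0.12). Among them were *Cyp2c70*, which makes the muricholic acids of mice (1.03 in *Mrps12ep/ep*), *Akr1d1*, the steroid 5β-reductase (0.84), and *Cyp39a1*, the 24-hydroxycholesterol 7α-hydroxylase (0.83). *Ch25h*, cholesterol 25-hydroxylase, was −1.60 in *Mrps12ep/ep* and −2.64 in *Mrps12ha/ha* livers, where it was the 1 that was lower. Of 10 other carriers of bile acids and bile lipids, 0 passed in *Mrps12ep/ep* livers (median 0.15) and 1 in *Mrps12ha/ha* livers (median 0.04), the uptake carrier *Slco2b1* (0.28). *Slc51b*, a subunit of the basolateral bile acid exporter, had a log2 difference of −1.58 between *Mrps12ha/ha* and *Mrps12ep/ep* livers (limma adjusted p = 0.509). Of 14 regulators, 1 was higher in *Mrps12ep/ep* (median 0.12) and 3 in *Mrps12ha/ha* livers (median 0.11), *Mafg*, a repressor of bile acid synthesis induced by FXR, being 0.38 and 0.52, and *Klb*, the co-receptor for FGF15, 0.50 in *Mrps12ha/ha* livers. The FXR gene itself, *Nr1h4*, was −0.32 in *Mrps12ep/ep* livers and did not pass at that level. The 1 of 14 regulators in *Mrps12ep/ep* and the 1 of 10 carriers in *Mrps12ha/ha* livers were near or under those shares.

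Genes that LXR or SREBP2 is known to drive were counted in the same way. Of 10 further LXR targets, 2 were higher and 1 lower in *Mrps12ep/ep* livers (median 0.22), and 2 were lower and 0 higher in *Mrps12ha/ha* livers (median 0.30). *Srebf1* was 1.20 in *Mrps12ep/ep* livers (SE 0.28; limma adjusted p = 0.334), on the same side as *Abcg5*, and *Pltp*, the phospholipid transfer protein, was −1.27, on the other. Of 11 targets of SREBP2, the factor that turns on cholesterol synthesis and uptake when sterols are scarce, 10 were lower in *Mrps12ep/ep* livers at an unadjusted p under 0.05 and none higher (median −1.29), and 7 were lower in *Mrps12ha/ha* livers (median −0.70). The log2 differences of *Sqle*, squalene epoxidase, were −4.99 and −1.97, and those of *Hmgcs1*, HMG-CoA synthase, −1.92 and −1.31. Without *Mrps12+/+* liver 3 the *Mrps12ep/ep* median of the 11 was −0.87 and the *Mrps12ha/ha* median −0.50. At an unadjusted p under 0.05, 9 were then lower in *Mrps12ep/ep* and 5 in *Mrps12ha/ha* livers. Of all 15314 genes, 603 were lower in *Mrps12ep/ep* and 973 in *Mrps12ha/ha* livers in that setting. Of 10 genes for HDL and intracellular cholesterol, 2 were higher and 2 lower in *Mrps12ep/ep* livers (median −0.05), with *Nceh1*, a cholesteryl ester hydrolase, at −1.20, and 2 were higher in *Mrps12ha/ha* livers (median −0.01), *Npc1*, the lysosomal cholesterol exporter, being 0.56. With all 9 livers no gene of these lists passed the adjusted threshold. Of the SREBP2 targets, *Cyp51* and *Idi1* were called lower in *Mrps12ep/ep* livers without *Mrps12+/+* liver 3, where 68 of 15314 genes were called. Without *Mrps12+/+* liver 1, where 26 genes were called, these were *Cyp51*, *Hmgcs1* and *Idi1*. Without *Mrps12+/+* liver 2, where 1 gene was called, 0 of the 11 targets were. The values are a description beside the all-gene medians given above.

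**Figure D3:**
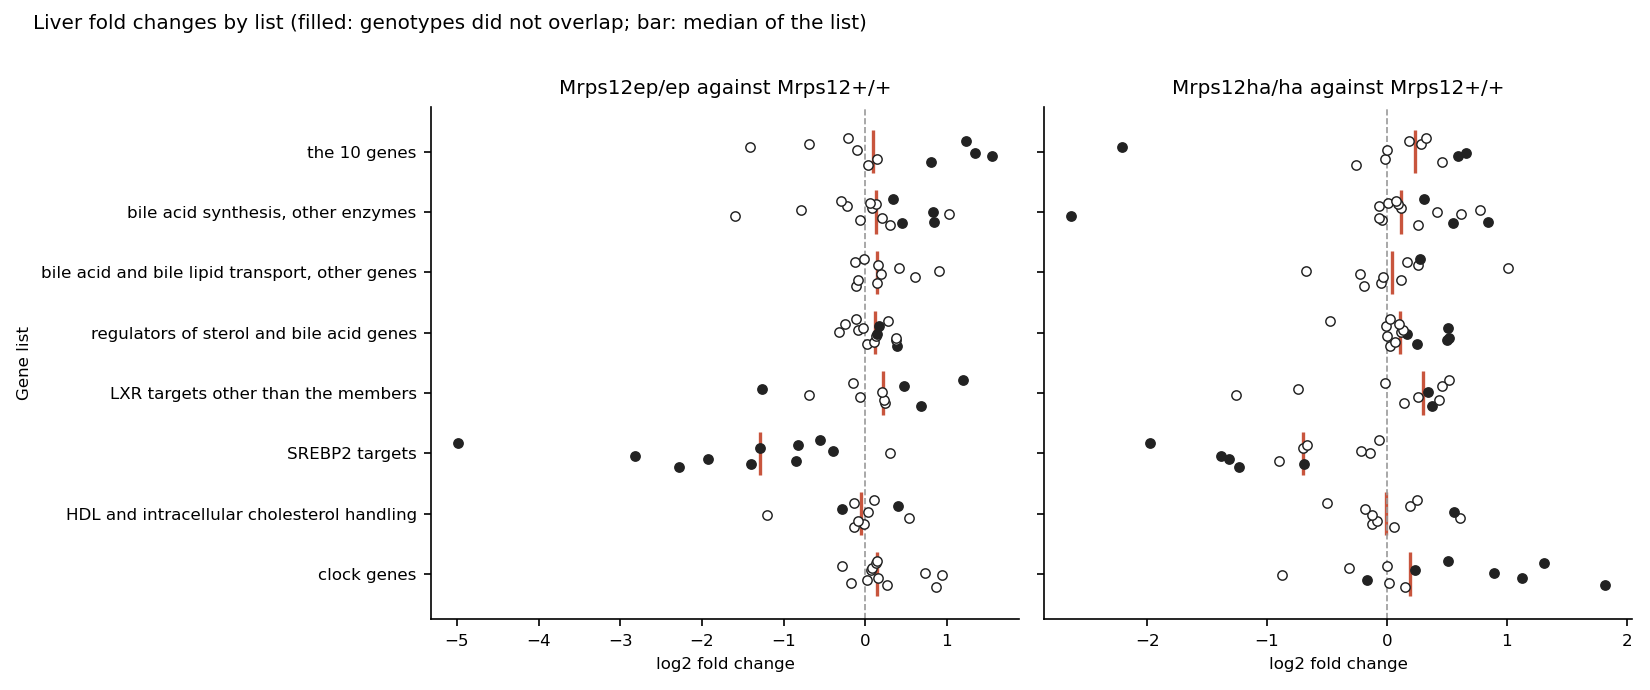
Log2 differences of the genes of each list in the error-prone and hyper-accurate livers against wild type, from limma; each point is a gene, filled where the groups did not overlap, red bars are medians, and the 2 panels have different x scales. The SREBP2 targets lie mostly below 0, with medians of −1.29 and −0.70, and the 10 sterol efflux and bile acid genes lie on both sides of it.

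In the heart, which is not known for bile acid synthesis, 3 of the 10 genes, *Abcg5*, *Abcg8* and *Cyp7a1*, had means under 10 and were not tested. None of the other 7 passed the adjusted threshold in any comparison, where 0 genes did in *Mrps12ep/ep* against *Mrps12+/+* (0%), 5 in *Mrps12ha/ha* against *Mrps12+/+* (0.0311%) and 4 in *Mrps12ha/ha* against *Mrps12ep/ep* hearts (0.0249%). A test of any genotype difference also called none of the 7 and 0.0311% of genes. At an unadjusted limma p under 0.05, 1 of 7 differed between *Mrps12ep/ep* and *Mrps12+/+* hearts (1.69% of all genes), 0 between *Mrps12ha/ha* and *Mrps12+/+* (19.7%) and 1 between *Mrps12ha/ha* and *Mrps12ep/ep* (17.9%). Median log2 differences of the 7 were −0.15, 0.17 and 0.32 in the same order, beside −0.01, −0.02 and −0.02 over all genes. Of 10 SREBP2 targets tested in the heart, 5 were lower and 1 higher in *Mrps12ha/ha* than in *Mrps12+/+* hearts at that level (median −0.39), and 0 were lower and 1 higher in *Mrps12ep/ep* hearts. Of the 12 clock genes, 6 were higher and 4 lower in *Mrps12ha/ha* hearts.

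In the heart the *Mrps12ep/ep* and *Mrps12+/+* groups of *Abcg1* did not overlap. Its counts were 240.3, 241 and 239.6 in *Mrps12+/+* hearts 1 to 3, 332, 409 and 345 in *Mrps12ep/ep* hearts 1 to 3 and 357, 278 and 238 in *Mrps12ha/ha* hearts 1 to 3. The 3 control hearts were within 2 counts of each other, and all *Mrps12ep/ep* hearts lay above them, as in 4.40% of genes, while the *Mrps12ha/ha* hearts overlapped both. The means were 240.4 ± 0.907, 362 ± 41.1 and 291 ± 60.7 (SD, n = 3), the *Mrps12ep/ep* mean 1.5 times that of *Mrps12+/+* (log2 difference 0.58, SE 0.17; limma adjusted p = 1). *Abca1* counts were 1116, 932 and 1034 in *Mrps12+/+* hearts 1 to 3, 1067, 1486 and 1197 in *Mrps12ep/ep* hearts 1 to 3 and 1202, 1187 and 923 in *Mrps12ha/ha* hearts 1 to 3, which overlapped, and over the 9 hearts *Abca1* and *Abcg1* had r = 0.82. The sum of 7 macrophage genes, a cell type rich in both pumps, was 4162 to 7823 in *Mrps12ep/ep* hearts and 4373 to 4601 in *Mrps12+/+* hearts, the highest in *Mrps12ep/ep* heart 2, which also had the highest *Abcg1* and *Abca1* counts. Gene by gene, 6 of the 7 had a positive log2 difference (median 0.31). Of these, 0 were higher at an unadjusted limma p under 0.05 and 0 lay above the controls without overlap. The remaining 1 was lower at that level (1.69% of all genes passed), and its groups did not overlap. The part of macrophages in the *Abcg1* difference was not tested. In the hearts *Abcg1* was most like *Cdca2* (r = 0.929), *Prr11* (0.917) and *Kif22* (0.908) and *Abca1* was most like *Ypel2* (0.946) and *Fcna* (0.94).

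*Nr0b2* counts in the heart were 257, 262 and 223 in *Mrps12+/+* hearts 1 to 3, 246, 200.1 and 275 in *Mrps12ep/ep* hearts 1 to 3 and 311, 284 and 271 in *Mrps12ha/ha* hearts 1 to 3. All *Mrps12ha/ha* hearts lay above all *Mrps12+/+* hearts, as in 11.1% of genes, with means of 289 ± 20.4 and 247 ± 21 (SD, n = 3), and the log2 difference was 0.22 (SE 0.16; limma adjusted p = 0.425). *Cyp27a1*, which is expressed widely outside the liver, had counts of 1101, 983 and 1172 in *Mrps12+/+* hearts 1 to 3, 927, 983 and 1017 in *Mrps12ep/ep* hearts 1 to 3 and 1423, 957 and 1327 in *Mrps12ha/ha* hearts 1 to 3. *Mrps12ha/ha* hearts 1 and 3 were the highest of the 9 and *Mrps12ha/ha* heart 2 lay among the *Mrps12ep/ep* hearts, and the *Mrps12ha/ha* minus *Mrps12ep/ep* difference was 0.32 (limma adjusted p = 0.298). Without *Mrps12ha/ha* heart 2 that difference was 0.50 (limma adjusted p = 0.0133) and the *Mrps12ha/ha* minus *Mrps12+/+* difference 0.34 (adjusted p = 0.0412), so that *Cyp27a1* alone of the 7 was then called, higher in the remaining 2 *Mrps12ha/ha* hearts, beside the 4330 and 3730 genes called in that setting.

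**Figure D4:**
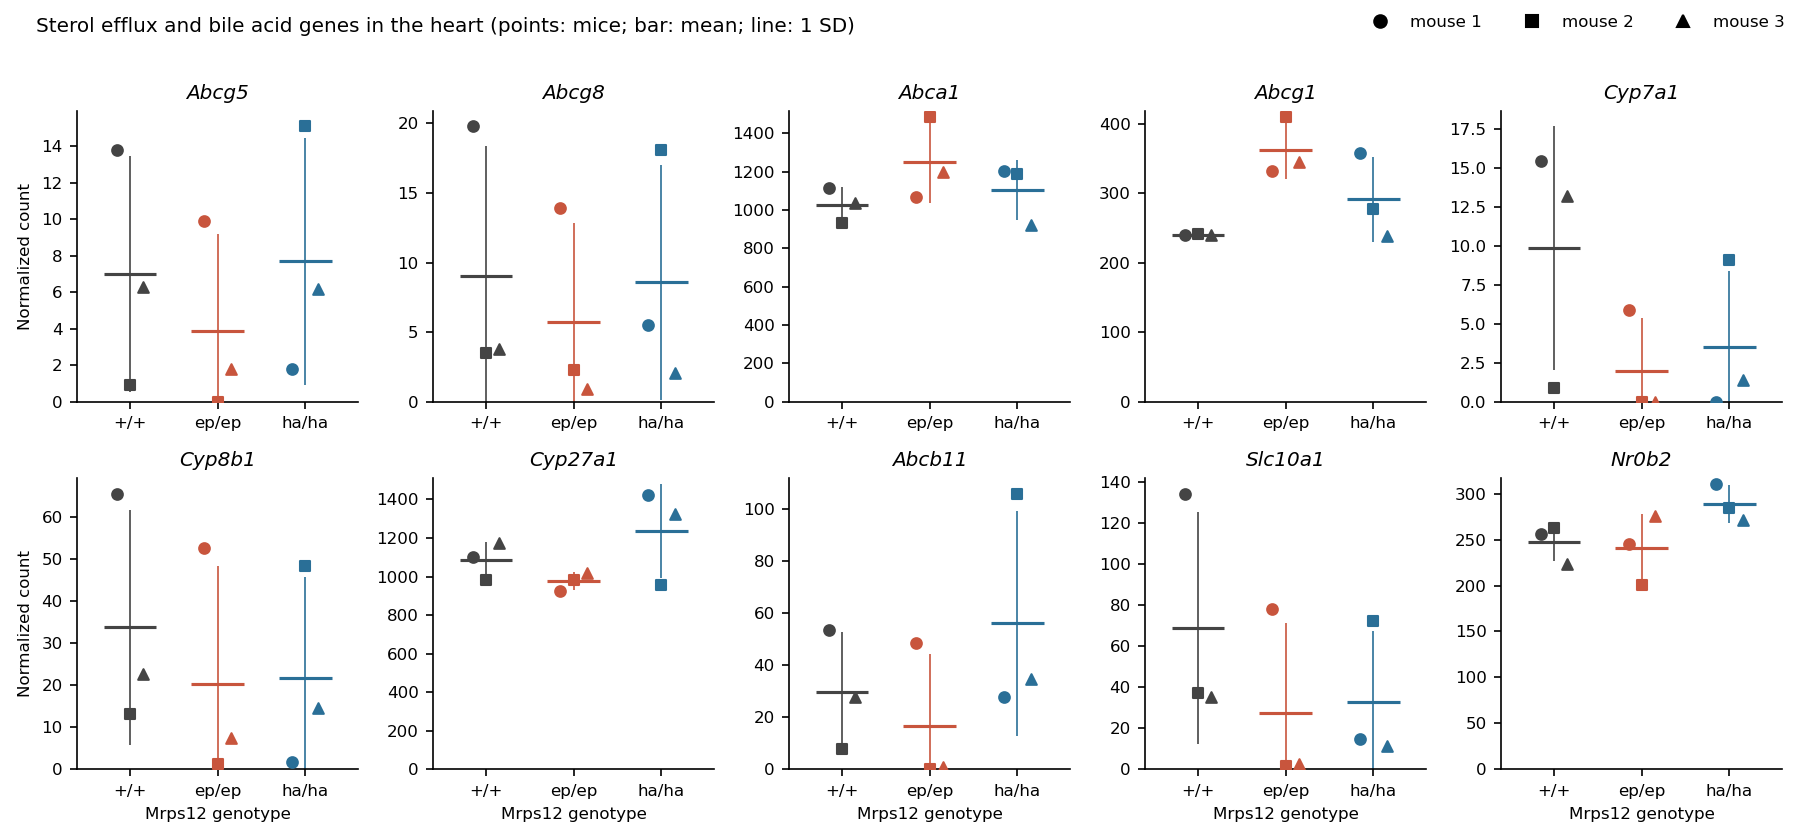
Normalized counts of the 10 genes in the 9 hearts, with colours, shapes and bars as for the livers; bars that would pass below 0 end at the axis. *Abcg1* separates the error-prone from the wild-type hearts, and the liver-restricted genes are scattered within every genotype.

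The liver-restricted genes were read at low levels in hearts and varied with albumin. *Alb*, a secreted hepatocyte protein, had heart counts of 9895, 2754 and 4116 in *Mrps12+/+* hearts 1 to 3, 7737, 65.5 and 569 in *Mrps12ep/ep* hearts 1 to 3 and 1428, 9879 and 2589 in *Mrps12ha/ha* hearts 1 to 3. *Slc10a1* counts were 134, 37.2 and 35.2 in *Mrps12+/+* hearts 1 to 3, 78.3, 1.7 and 2.7 in *Mrps12ep/ep* hearts 1 to 3 and 14.7, 72.5 and 11.1 in *Mrps12ha/ha* hearts 1 to 3, and the 3 hearts with the most *Alb*, 1 of each genotype, had the most *Slc10a1*. *Abcb11* counts were 53.4, 7.8 and 27.7 in *Mrps12+/+* hearts 1 to 3, 48.5, 0 and 0.9 in *Mrps12ep/ep* hearts 1 to 3 and 27.6, 106 and 34.6 in *Mrps12ha/ha* hearts 1 to 3. *Cyp8b1* counts were 65.4, 13 and 22.6 in *Mrps12+/+* hearts 1 to 3, 52.5, 1.2 and 7.3 in *Mrps12ep/ep* hearts 1 to 3 and 1.8, 48.3 and 14.5 in *Mrps12ha/ha* hearts 1 to 3, again with the highest values in those 3 hearts. Over the 9 hearts, which differ in depth and genotype, log2 values had Pearson r with *Alb* of 0.93 for *Slc10a1*, 0.92 for *Abcb11* and 0.88 for *Cyp8b1*, but 0.42 for *Nr0b2*, 0.01 for *Cyp27a1*, −0.64 for *Abca1* and −0.70 for *Abcg1*.

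Per 1000 *Alb* counts, *Slc10a1* was 4.29 to 26 in hearts (median 10.1) and 4.53 to 10.4 in livers (median 7.05), and *Cyp8b1* was 1.26 to 18.3 (median 5.6) and 1.07 to 9.37 (median 3.51). The highest heart ratios of both came from *Mrps12ep/ep* heart 2, on 3 *Slc10a1* and 2 *Cyp8b1* reads. The lowest *Cyp8b1* ratio came from *Mrps12ha/ha* heart 1, on 1 read. These lie at or under the floor of 3 reads. *Nr0b2*, in contrast, was 25.9 to 3050 per 1000 *Alb* counts in hearts and 0.281 to 1.35 in livers, and *Cyp27a1* 96.9 to 15000 and 3.91 to 7.41. The 5 hepatocyte genes summed to 3875 to 14110 in *Mrps12+/+*, 114.2 to 11500 in *Mrps12ep/ep* and 2244 to 13850 in *Mrps12ha/ha* hearts. The *Mrps12ha/ha* minus *Mrps12ep/ep* difference of *Abcb11*, 3.39 on the log2 scale (SE 1.34; limma adjusted p = 0.26), and the *Mrps12ep/ep* minus *Mrps12+/+* differences of *Slc10a1* (−2.63) and *Abcb11* (−2.40) rested on *Mrps12ep/ep* hearts 2 and 3, in which *Alb* was 65.5 and 569. Per 1000 *Alb* counts, however, *Abcb11* was 19.3, 10.7 and 13.4 in *Mrps12ha/ha* hearts 1 to 3, on 15, 35 and 50 reads. It was at most 6.73 in the other hearts and 2.87 to 6.93 in livers. Whether the heart reads of liver-restricted genes came from liver material was not tested. *Abcg5* counts were at most 15.1, *Abcg8* at most 19.8 and *Cyp7a1* at most 15.5 in any heart, so genotypes could not be told apart for them at this depth.

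**Figure D5:**
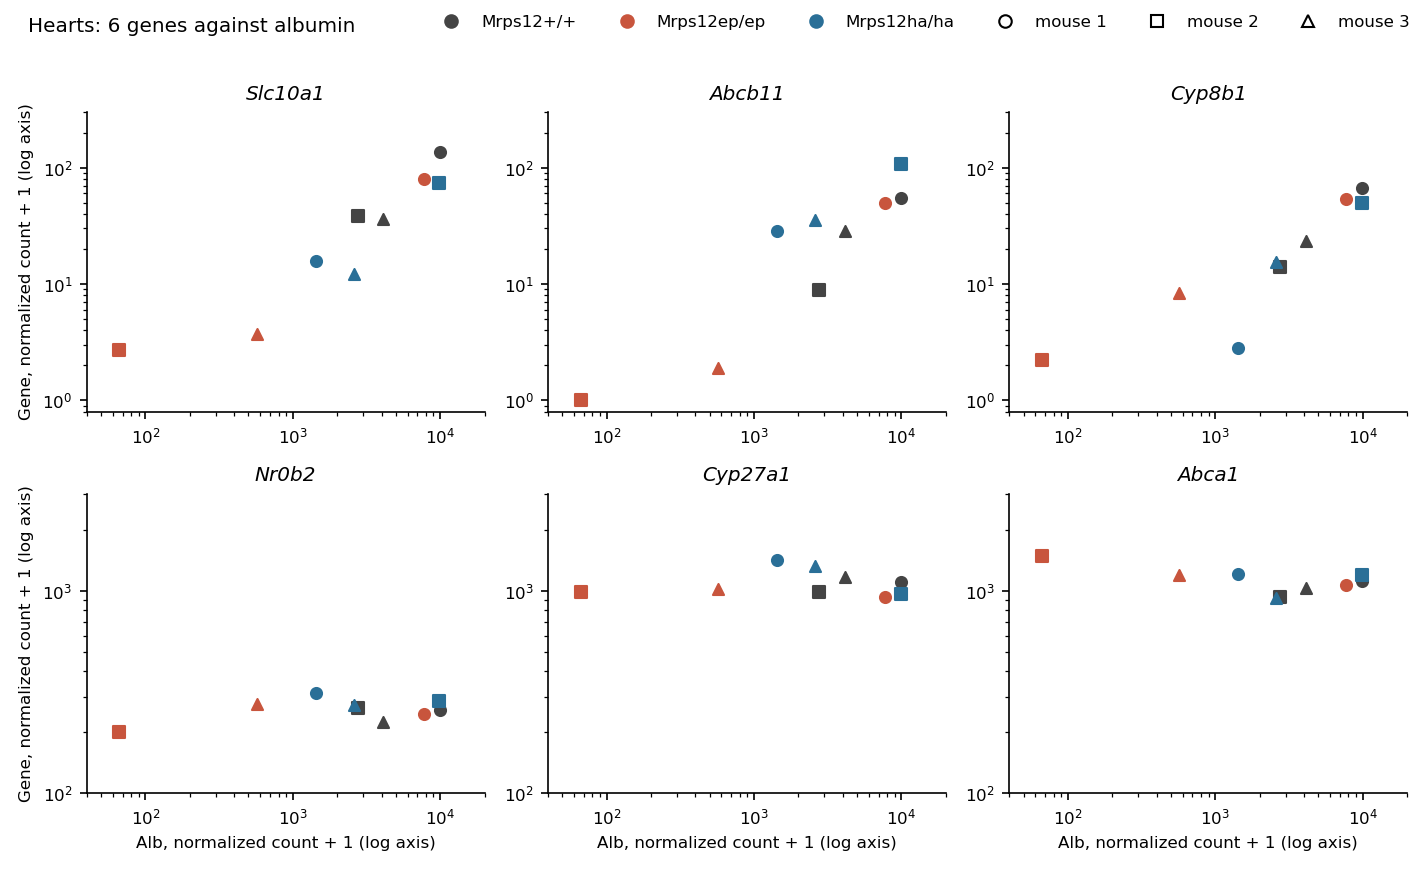
Normalized counts of liver genes and of widely expressed members in the 9 hearts against the *Alb* count of the same heart, both on log axes of count + 1. *Slc10a1*, *Abcb11* and *Cyp8b1* are higher where *Alb* is higher (r = 0.93, 0.92 and 0.88), and *Cyp27a1* is not (r = 0.01).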

How the data were processed

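RNA of whole hearts and livers of 3 mice per genotype was sequenced in 3 technical libraries per mouse. Per the submitters' processing notes and the study's methods, the authors trimmed reads with Trim Galore 0.4.1 and cutadapt 1.18, checked them with FastQC 0.11.8, quantified transcripts with Salmon 1.1.0 against GENCODE vM21 (GRCm38), summed them to genes with tximport, and normalized the 2 tissues separately with DESeq2 after leaving out mitochondrial transcripts. The deposited values are normalized counts per gene with 1 column per mouse, that is, read counts divided by a size factor. They are not whole reads, but 100% of low values were whole multiples (tolerance 0.1) of what 1 read is worth, which gave library sizes. The deposited tables of the authors' own comparisons hold fold changes and p-values and were not used. Genotypes were compared only within a tissue. Hearts and livers were set side by side only as ratios to *Alb* counts of the same tissue sample.

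Here, log2(normalized count + 1) of genes with a mean of at least 10 was fitted with limma 3.58.1 in R 4.3.3 (trend, no covariate), over the 9 mice of a tissue, with Benjamini-Hochberg adjustment over all genes tested, a threshold of 0.05, and an exact two-sided permutation test per gene. The script was tested on simulated data. Mean ± SD values are of normalized counts, and their ratio can differ from the fitted log2 difference. Named genes were the 10 members, list genes past the adjusted threshold or with large differences, and the 3 genes most like each member by Pearson r. Members, lists and motifs were chosen with earlier results of these data known. Mice are labelled as biological replicates, and p-values measure the spread between them. Same-numbered mice were not paired by the labels. Values were handled in Python 3.11.15 with pandas 2.3.3. Alternatives were a pseudocount, a filter, a scaling, array weights, a replicate block, leaving out each mouse and, chosen after seeing the data, limma-voom on the recovered reads. The counts and medians of gene lists without each *Mrps12+/+* liver were also added after the data were seen. Depth limits genes near 0 in the heart: 3 reads were taken as the floor.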

Additional observations from a re-analysis of the deposited data

How the results depend on the processing

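In the liver none of the 10 genes passed the adjusted threshold in any of 75 counts of called members under another setting, and no result with a call changed direction. In the heart 0 were called in *Mrps12ep/ep* against *Mrps12+/+* under every setting run. With array weights, which down-weight libraries that stand apart, 2 were called between *Mrps12ha/ha* and *Mrps12ep/ep* hearts (*Abcb11*, *Cyp27a1*) and 4 for any genotype difference (those and *Abcg1*, *Slc10a1*), when 6314 and 5968 of 16057 genes were called. Leaving out each mouse in turn gave 0 to 1 called for *Mrps12ha/ha* against *Mrps12+/+*, *Mrps12ha/ha* against *Mrps12ep/ep* and any difference, the 1 being *Cyp27a1* without *Mrps12ha/ha* heart 2. The cause was not tested. Of 960 single fold changes recomputed, 956 stayed uncalled on the same side or near 0, and 23 had another sign, each within 1 SE of 0 as reported.

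Under the replicate block 0 of the 10 were called in each comparison. The block gave 9, 7 and 6 called genes in the 3 liver comparisons (*Mrps12ep/ep* and *Mrps12ha/ha* against *Mrps12+/+*, and *Mrps12ha/ha* against *Mrps12ep/ep*) and 0, 3 and 4 in the heart. Deviations of same-numbered mice had a correlation over 0.1 in 2 of 9 pairs in each tissue. In the heart these were *Mrps12+/+* with *Mrps12ep/ep* mouse 1 (r = 0.58) and mouse 2 (r = 0.41), and in the liver the highest was 0.16. The labels give no pairing, and numbers were not taken as pairing in the reported fit. Over all liver genes, calls ran from 0 to 68 for *Mrps12ep/ep* against *Mrps12+/+* (68 without *Mrps12+/+* liver 3), from 0 to 90 for *Mrps12ha/ha* against *Mrps12+/+* (90 without *Mrps12+/+* liver 2) and from 0 to 18 for *Mrps12ha/ha* against *Mrps12ep/ep* livers. The limma-voom fit of recovered reads, added after seeing the data, called 0 members. The planned edgeR and DESeq2 fits were not run; the values, normalized counts, were tested on the log scale. Depth leaves *Abcg5*, *Abcg8* and *Cyp7a1* undecided in the heart.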
